A study of Mus musculus with 12 samples.

Results

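The genes described here build and maintain the protein import system of mitochondria: the translocases of the outer and inner membrane, the peptidase that removes targeting signals, the organisers of the cristae, and the chaperones and proteases of the matrix. They comprise every array symbol that begins with Timm or Tomm and a digit, apart from Timmdc1, together with Samm50, Immt, Chchd3, Mtx1, Mtx2, Pmpca, Pmpcb, Hspd1, Hspe1, Hspa9, Trap1, Lonp1, Clpp, Clpx and Grpel1. Of 41 such symbols, 38 had a probeset with no other symbol and were measured, out of 22180 genes. Tomm5, Tomm6 and Tomm6os appear only on probesets shared with other symbols and were not analysed here. All 38 lay among the 13308 genes tested, those above the dimmest 40% by mean level.

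The study measured RNA of the gastrocnemius, a calf muscle of mainly fast fibres, on Affymetrix Mouse Gene 2.0 ST arrays. The mice were FVB, labelled male, 2 to 3 months old, and either wild type (WT) or null for ERRa (Esrra, the orphan nuclear receptor estrogen-related receptor alpha); the labels do not describe the null allele or say whether it is confined to muscle. Each genotype was taken sedentary or 2 h after a treadmill run to exhaustion, giving 4 groups of 3 arrays: WT sedentary, ERRa-null sedentary, WT exercised and ERRa-null exercised. Groups follow the titles and descriptions; the source-name label states the opposite exercise state for ERRa-null sedentary and WT exercised.

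Nearly all mitochondrial proteins are made in the cytosol and enter through the TOM complex of the outer membrane. From there, precursors with a cleavable presequence pass through the TIM23 channel and are pulled into the matrix by an Hsp70 motor, whereas metabolite carriers are escorted by the small TIM proteins to the TIM22 complex, and barrel proteins are inserted into the outer membrane by Samm50 and its partners. In the matrix the presequence is cut off, chaperonins fold the protein, and Lonp1 and the ClpXP pair degrade what is damaged. Muscle fibres hold many mitochondria, and ERRa is known as an activator of genes for oxidative metabolism.

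Promoter sequences were available from RefSeq (GRCm38.p6) for 34 of the 38 genes, each reaching from 250 bases before to 50 bases after the annotated start. The first 4 are shown for the heat shock element, the site of the heat shock factors, and for the ERR site. In Hspe1, Timm9 and Timm10 the capitals mark GAANNTTC or TTCNNGAA, the paired units of a heat shock element; in Timm8b they mark TNAAGGTCA, the ERR site. The windows lie at chr1:55087898-55088197 (plus strand) for Hspe1, chr12:71136626-71136925 (minus) for Timm9, chr2:84826771-84827070 (plus) for Timm10 and chr9:50603651-50603950 (plus) for Timm8b.
Hspe1: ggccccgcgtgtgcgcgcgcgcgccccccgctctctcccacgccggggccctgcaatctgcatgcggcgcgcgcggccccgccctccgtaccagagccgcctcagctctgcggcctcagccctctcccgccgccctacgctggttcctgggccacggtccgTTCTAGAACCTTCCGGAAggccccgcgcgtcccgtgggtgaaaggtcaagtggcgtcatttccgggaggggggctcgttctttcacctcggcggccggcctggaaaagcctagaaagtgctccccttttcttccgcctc
Timm9: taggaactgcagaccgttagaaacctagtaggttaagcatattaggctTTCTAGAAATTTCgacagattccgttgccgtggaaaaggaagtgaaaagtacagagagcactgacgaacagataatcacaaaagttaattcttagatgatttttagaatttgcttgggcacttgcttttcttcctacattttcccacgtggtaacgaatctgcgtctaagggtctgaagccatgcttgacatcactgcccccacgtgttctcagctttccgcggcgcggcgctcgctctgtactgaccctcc
Timm10: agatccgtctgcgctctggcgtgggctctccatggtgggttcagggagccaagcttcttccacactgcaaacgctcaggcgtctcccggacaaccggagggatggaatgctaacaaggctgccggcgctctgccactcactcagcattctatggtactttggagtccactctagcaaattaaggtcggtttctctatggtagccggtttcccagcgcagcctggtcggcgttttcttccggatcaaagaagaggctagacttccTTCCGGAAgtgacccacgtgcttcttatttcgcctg
Timm8b: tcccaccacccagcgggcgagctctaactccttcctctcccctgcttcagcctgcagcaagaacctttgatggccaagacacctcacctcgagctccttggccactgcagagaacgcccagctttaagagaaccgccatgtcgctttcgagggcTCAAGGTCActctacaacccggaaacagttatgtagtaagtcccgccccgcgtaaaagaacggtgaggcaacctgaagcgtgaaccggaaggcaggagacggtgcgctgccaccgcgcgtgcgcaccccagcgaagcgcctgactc

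The other 4 belong to genes that were lower in ERRa-null muscle. Capitals mark AAGGTCA, the core of the ERR site, and CCGGAAG, a core bound by ETS-family factors, on either strand; the window of Samm50 holds neither. The windows lie at chr14:32201842-32202141 (minus) for Timm23, chr6:71831070-71831369 (plus) for Immt, chr15:84191990-84192289 (plus) for Samm50 and chr6:33060211-33060510 (minus) for Chchd3.
Timm23: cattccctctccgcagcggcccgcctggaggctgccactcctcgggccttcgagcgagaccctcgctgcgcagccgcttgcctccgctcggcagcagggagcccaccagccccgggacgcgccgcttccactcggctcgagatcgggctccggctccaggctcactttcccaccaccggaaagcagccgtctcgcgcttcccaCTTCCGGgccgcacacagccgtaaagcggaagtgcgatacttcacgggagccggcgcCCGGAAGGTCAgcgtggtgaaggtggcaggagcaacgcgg
Immt: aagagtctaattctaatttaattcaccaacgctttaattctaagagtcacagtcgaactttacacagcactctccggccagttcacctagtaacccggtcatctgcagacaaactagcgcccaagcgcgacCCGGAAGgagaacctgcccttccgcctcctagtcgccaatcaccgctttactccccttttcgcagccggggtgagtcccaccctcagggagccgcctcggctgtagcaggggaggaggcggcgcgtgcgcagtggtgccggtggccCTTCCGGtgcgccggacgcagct
Samm50: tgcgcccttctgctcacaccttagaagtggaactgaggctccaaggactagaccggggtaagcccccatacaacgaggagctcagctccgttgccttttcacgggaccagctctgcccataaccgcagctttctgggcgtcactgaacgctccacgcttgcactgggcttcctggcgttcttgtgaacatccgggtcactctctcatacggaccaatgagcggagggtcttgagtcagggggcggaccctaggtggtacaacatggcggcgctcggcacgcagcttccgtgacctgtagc
Chchd3: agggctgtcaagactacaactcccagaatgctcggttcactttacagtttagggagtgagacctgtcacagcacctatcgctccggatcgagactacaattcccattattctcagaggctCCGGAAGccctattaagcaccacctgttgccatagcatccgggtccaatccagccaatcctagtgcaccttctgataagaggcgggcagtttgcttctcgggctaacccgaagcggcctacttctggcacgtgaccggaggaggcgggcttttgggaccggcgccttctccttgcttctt

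Each motif was searched on both strands. Where a gene had more than 1 annotated window, it counted once if any of them held the motif. The ERR site occurred in 1 of the 34 genes, Timm8b, where it spans bases -96 to -88 from the start. It occurs in 1.43% of the 27025 genes with a window. The shorter AAGGTCA, which lies inside that site, occurred in 6 genes (17.6%, against 5.38% of all): Hspd1, Hspe1, Timm23, Timm44, Timm8b and Trap1. A heat shock element of 3 alternating units, which is GAANNTTC followed at once by NNGAA, occurred in 3 genes (8.82%, against 0.662% of all): Hspd1, Hspe1 and Timm9. In Timm9 it spans bases -202 to -190. The window of Timm10 holds only the paired form TTCNNGAA, at bases 14 to 21 after the start. TTCNNGAA occurred in 9 genes (26.5%, against 9.60% of all and 7.92% of the tested genes), and GAANNTTC in 3 (8.82%, against 9.04% and 6.89%). Hspd1 and Hspe1 are read in opposite directions from start sites 216 bases apart, so that their windows share 285 bases and the same element, at -89 to -72 of Hspe1 and -144 to -127 of Hspd1; another annotated window of Hspd1 lacks it. CCGGAAG occurred in 19 genes (55.9%), against 9.93% of all genes with a window and 17.6% of the tested genes among them. In Timm23 one CCGGAAG overlaps the AAGGTCA in a single run that ends at base 20 after the start. The core of the NRF1 site, GCGCA and GCGC on either side of any 1 base, occurred in 4 genes (11.8%), against 5.19% of all and 10.2% of the tested genes. The searches for the shorter ERR core, the ETS core and the NRF1 core were added after the expression values were seen, and none of these matches is evidence of binding.

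The arrays had medians of 5.15 to 5.26 on the log2 scale over all probesets and correlated with each other at 0.953 to 0.990 over the 13308 tested genes. Fast fibre markers averaged 12.76 to 12.88 on every array. The Esrra probeset fell by 0.80 ± 0.08 (SE) in the ERRa-null arrays, averaged over both states (adjusted p = 0.00121); whether its probes lie in the deleted stretch is not stated. On 3 arrays labelled male, WT exercised replicate 3 and ERRa-null exercised replicates 2 and 3, Xist stood at 7.82 to 7.90 and the Y-linked transcripts averaged 4.21 to 4.31, against 3.66 to 4.30 and 7.09 to 7.46 on the other arrays. Ucp1, the uncoupling protein of brown fat, stood at 7.76 to 10.93 on 4 sedentary arrays (WT 2 and 3, ERRa-null 1 and 3) and at no more than 6.24 elsewhere. The mean of the 4 brown adipocyte markers, Ucp1, Cidea, Elovl3 and the muscle-expressed Cox7a1, was 7.12 to 9.86 in WT sedentary, 6.93 to 8.70 in ERRa-null sedentary, 6.82 to 7.15 in WT exercised and 6.58 to 7.24 in ERRa-null exercised muscle. Hepatocyte markers (7 of 7 on the array) averaged 5.83 to 10.29 in WT sedentary, 5.73 to 8.88 in ERRa-null sedentary, 6.11 to 8.05 in WT exercised and 5.94 to 7.15 in ERRa-null exercised muscle. B lymphocyte markers (3 of 4 on the array) reached 6.92 and 8.0 in the WT and ERRa-null sedentary groups and 4.73 in the exercised ones. The array at 8.0, ERRa-null sedentary replicate 1, also had seminal vesicle markers at 12.37 against 3.67 to 3.98 on the others. Slow fibre markers averaged 9.40 to 10.12 in WT sedentary and 9.99 to 10.61 in ERRa-null sedentary muscle, and 9.60 to 10.35 and 9.90 to 10.30 in the exercised groups.

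ERRa-null muscle had lower levels of 5 genes spread over the import channel, its motor, the outer-membrane insertase and the cristae organisers. Averaged over both exercise states, 5 of the 38 genes were lower in ERRa-null muscle and none was higher at an adjusted p under 0.05: Timm23 (the channel of the presequence translocase), Immt and Chchd3 (subunits of the cristae-organising complex), Samm50 (the outer-membrane insertase) and Hspa9 (the matrix Hsp70). Their falls were 0.25 to 0.38 on the log2 scale, to 0.767 to 0.844 of the WT level. In the same comparison 1.43% of all tested genes were called, and 0.999% of all as lower, which sets the background for 5 of 38 (13.2%). The estimate was below 0 for 31 of the 38 genes (81.6%), against 49.8% of all tested genes, and the median difference was -0.11 against 0.00. For 6 genes (15.8%) all 6 ERRa-null arrays lay below all 6 WT arrays, against 1.01% of all tested genes: the called genes other than Chchd3, with Timm44 and Timm21. As this is whole muscle, fewer cells of a type and less RNA per cell cannot be told apart.

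In sedentary muscle taken alone, 0 of the 38 genes were called, against 0.0827% of all tested genes; at an unadjusted p under 0.05, limma gave 9 lower (23.7%, against 4.16% of all tested genes) and 0 higher (against 4.07%). The median difference was -0.08, against 0.00 over all tested genes; it was -0.04 without ERRa-null sedentary replicate 1 and -0.05 without WT sedentary replicate 1. All 3 ERRa-null arrays lay below all 3 WT arrays for 6 genes (15.8%), against 6.53% of all tested genes. After exercise 1 gene was called, Timm23, against 0.376% of all tested genes, and 15 passed an unadjusted p under 0.05, each of them lower (39.5%, against 6.64% of all tested genes as lower and 3.75% as higher). Those 15 genes also had all ERRa-null arrays below all WT arrays (against 9.31% of all), and Mtx1 had them all above (2.63%, against 6.64%); the median difference was -0.13 against 0.00. The 2 states were not shown to differ: the test of the difference between them called 0 of the 38 genes, against 0.00751% of all, and gave none at an unadjusted p under 0.05, against 3.2% of all as lower and 1.92% as higher. The smallest of those p-values, 0.0527, belonged to Timm23 (adjusted p = 0.963).

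**Figure D1:**
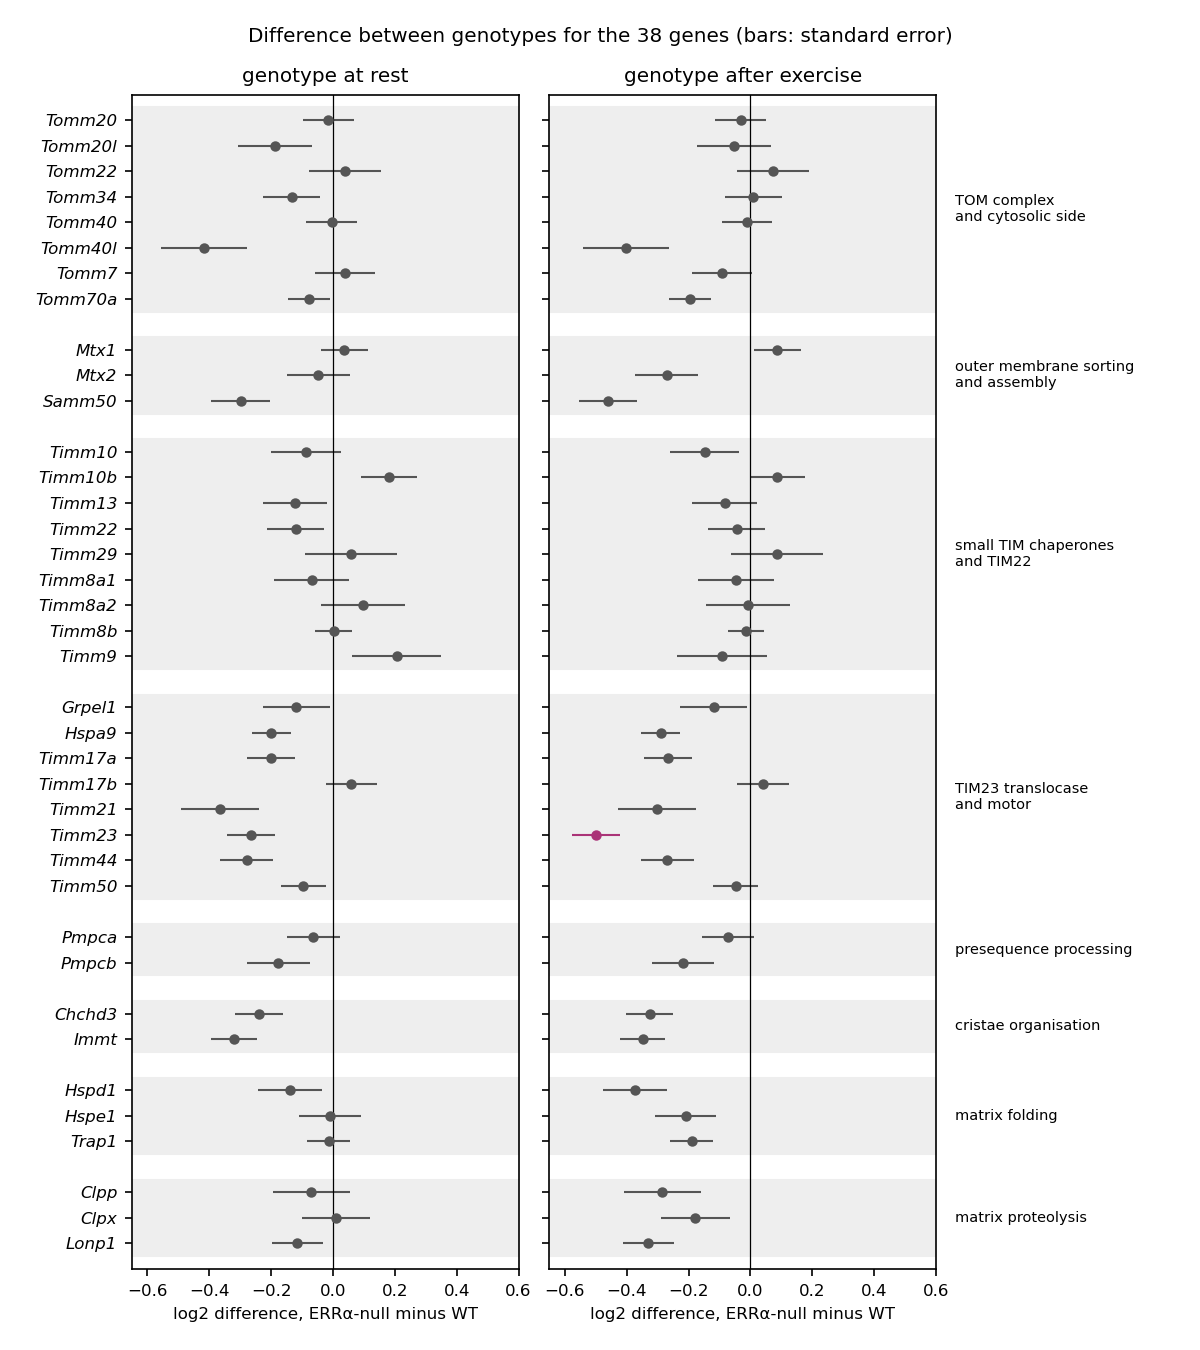
Difference in log2 level between ERRa-null and WT muscle (x axis) for each of the 38 genes, grouped by role, in sedentary muscle (left) and after exercise (right). Points are estimates, bars 1 standard error, and the coloured point is the called gene; the cristae genes and 7 of 8 genes of the TIM23 group lie left of 0 on both sides, while the small TIM genes lie on either side of it.

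The TIM23 group, which carries presequence proteins into the matrix, held 2 of the 5 called genes (25% of its 8 genes, against 0.999% of all tested genes). Its 8 genes had a median difference of -0.24 averaged over states, against 0.00 over all tested genes. Of the 8, 7 were below 0 (87.5%, against 49.8% of all tested genes). Timm23 measured 11.49, 11.46 and 11.45 on the WT sedentary arrays, 11.02, 11.34 and 11.24 on the ERRa-null sedentary, 11.65, 11.48 and 11.53 on the WT exercised and 11.11, 11.01 and 11.05 on the ERRa-null exercised arrays. Every ERRa-null array was below every WT array. The difference was -0.27 ± 0.08 (SE) at rest (adjusted p = 0.297), -0.50 ± 0.08 after exercise (adjusted p = 0.0227) and -0.38 ± 0.05 averaged over both (adjusted p = 0.00547). The fall after exercise lost its call whichever exercised array was left out (adjusted p 0.0588 to 0.0984, difference -0.53 to -0.45) and when the female-profile arrays were dropped (-0.46, adjusted p = 0.465). A block for replicate number gave it an adjusted p of 0.0234 on the exercised arrays alone and of 0.0516 over all 12.

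Hspa9, the Hsp70 that pulls precursors through the channel, measured 11.57, 11.49 and 11.44 in WT sedentary, 11.24, 11.30 and 11.36 in ERRa-null sedentary, 11.65, 11.50 and 11.67 in WT exercised and 11.27, 11.32 and 11.35 in ERRa-null exercised muscle. The 6 ERRa-null arrays again lay below all 6 WT arrays. Its difference was -0.20 ± 0.06 at rest, -0.29 ± 0.06 after exercise and -0.25 ± 0.04 averaged (adjusted p = 0.0191).

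Timm44 tethers that Hsp70 to the channel. Its levels were 8.91, 8.91 and 8.69 in WT sedentary, 8.43, 8.65 and 8.60 in ERRa-null sedentary, 8.78, 8.80 and 8.94 in WT exercised and 8.61, 8.56 and 8.55 in ERRa-null exercised muscle. The genotypes did not overlap in either state, and the averaged difference of -0.27 ± 0.06 fell just short of the threshold (adjusted p = 0.0501). Timm17a, which forms the channel with Timm23, measured 9.97, 10.09 and 9.91 in WT sedentary, 9.65, 9.92 and 9.80 in ERRa-null sedentary, 10.03, 9.95 and 9.93 in WT exercised and 9.71, 9.75 and 9.67 in ERRa-null exercised muscle. ERRa-null sedentary replicate 2 reached the WT range, whereas the exercised groups were apart; the averaged difference was -0.23 ± 0.05 (adjusted p = 0.0616). Timm21, which links the translocase to TOM, had an averaged difference of -0.33 ± 0.09 with no overlap in either state (adjusted p = 0.103). Grpel1, the nucleotide exchange factor of the motor, and Timm50, the receptor of the channel, had differences of -0.12 and -0.07.

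**Figure D2:**
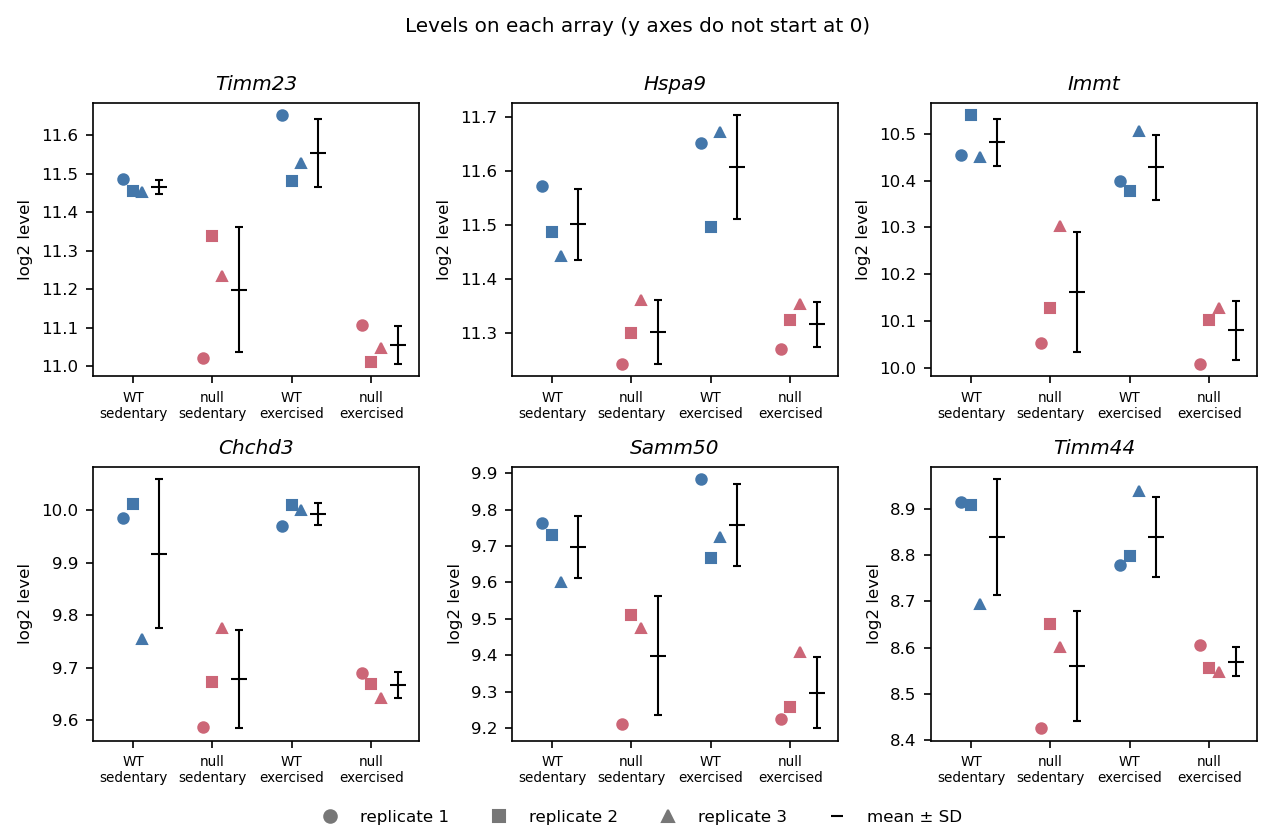
Log2 level on each array (y axis, not from 0) of the 5 genes called lower in ERRa-null muscle averaged over states and of Timm44, which fell just short, by group. Symbols mark replicate numbers and the bar the mean with its SD over 3 arrays; the ERRa-null arrays of Timm23 after exercise, 11.01 to 11.11, lie below all WT exercised arrays, 11.48 to 11.65.

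Timm17a and Timm17b are alternative partners of Timm23 and gave different results. Timm17b, an X-linked gene, measured 8.04, 7.996 and 7.87 in WT sedentary, 7.89, 8.05 and 8.15 in ERRa-null sedentary, 7.996, 8.06 and 8.003 in WT exercised and 7.98, 8.08 and 8.12 in ERRa-null exercised muscle. The genotypes overlapped in both states, with an averaged difference of 0.05 ± 0.06. The genotype difference of Timm17a was lower than that of Timm17b by -0.28 (two-sided exact permutation within exercise state, n = 3 a group, p = 0.005, the smallest the 400 arrangements allow; adjusted p = 0.03 over 12 such tests of gene pairs). Without the arrays of female profile it was -0.25, and without the sedentary arrays of high Ucp1 -0.18.

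The 2 cristae genes chosen for this set, Immt and Chchd3, were called lower averaged over states, as were 0.999% of all tested genes. Immt (the core of the MICOS complex, which shapes cristae junctions) measured 10.46, 10.54 and 10.45 in WT sedentary, 10.05, 10.13 and 10.30 in ERRa-null sedentary, 10.40, 10.38 and 10.51 in WT exercised and 10.01, 10.10 and 10.13 in ERRa-null exercised muscle. All 6 ERRa-null arrays were below all 6 WT arrays. The difference was -0.32 ± 0.07 at rest and -0.35 ± 0.07 after exercise, and -0.33 ± 0.05 averaged (adjusted p = 0.00818). Chchd3, its partner in MICOS, measured 9.98, 10.01 and 9.75 in WT sedentary, 9.59, 9.67 and 9.77 in ERRa-null sedentary, 9.97, 10.01 and 10.001 in WT exercised and 9.69, 9.67 and 9.64 in ERRa-null exercised muscle. WT sedentary replicate 3 fell inside the ERRa-null range and the exercised groups did not overlap. Its averaged difference was -0.28 ± 0.05 (adjusted p = 0.0247), called in 9 of 24 alternative settings, against 21 for Immt, 21 for Timm23, 19 for Samm50 and 17 for Hspa9. Further MICOS subunits were tested outside this set, and none was called. Apoo, Apool, Micos10 and Micos13 had lower means in ERRa-null than in WT muscle in both states. Chchd6 went the other way, with means of 6.13 in WT and 6.44 in ERRa-null muscle at rest. After exercise its means were 6.24 and 6.33.

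In the outer-membrane assembly group Samm50 was called lower in ERRa-null muscle and neither metaxin was called. Samm50, the barrel that inserts other barrels, measured 9.76, 9.73 and 9.60 in WT sedentary, 9.21, 9.51 and 9.47 in ERRa-null sedentary, 9.88, 9.67 and 9.72 in WT exercised and 9.22, 9.26 and 9.41 in ERRa-null exercised muscle. No ERRa-null array reached the lowest WT array. The differences were -0.30 ± 0.09 at rest, -0.46 ± 0.09 after exercise and -0.38 ± 0.07 averaged (adjusted p = 0.0175).

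Mtx2, a metaxin of the same complex, measured 8.51, 8.44 and 8.19 in WT sedentary, 8.23, 8.45 and 8.32 in ERRa-null sedentary, 8.35, 8.36 and 8.29 in WT exercised and 8.18, 7.90 and 8.11 in ERRa-null exercised muscle. Its groups overlapped at rest and not after exercise, where the difference was -0.27 ± 0.10 (adjusted p = 0.353), and the averaged difference was -0.16 ± 0.07 (adjusted p = 0.397). Mtx1, the other metaxin, measured 6.83, 6.999 and 7.01 in WT sedentary, 6.98, 7.02 and 6.95 in ERRa-null sedentary, 7.01, 6.94 and 7.06 in WT exercised and 7.13, 7.07 and 7.06 in ERRa-null exercised muscle. The genotypes overlapped at rest and only just parted after exercise, with ERRa-null above WT, and the averaged difference was 0.06 ± 0.05 (adjusted p = 0.744).

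In the TOM complex Tomm20, Tomm22 and Tomm40 differed little between genotypes, whereas the estimates of Tomm70a and Tomm40l were more negative. The 8 genes of the TOM group had a median averaged difference of -0.04 and none was called. For Tomm20, Tomm22 and Tomm40 (2 receptors and the pore) the estimates were -0.02, 0.06 and -0.01, and the 95% intervals ran from -0.15 to 0.10, from -0.12 to 0.23 and from -0.13 to 0.12. Tomm70a, the receptor of carrier proteins, measured 9.12, 9.03 and 9.01 in WT sedentary, 8.90, 9.03 and 8.999 in ERRa-null sedentary, 9.13, 9.07 and 9.20 in WT exercised and 8.91, 8.96 and 8.94 in ERRa-null exercised muscle. The genotypes did not overlap after exercise, where they differed by -0.20 ± 0.07 (adjusted p = 0.294). At rest they overlapped, and the averaged difference of Tomm70a was -0.14 (95% interval -0.24 to -0.03). Tomm7, Tomm34 and Tomm20l, a small subunit, a cytosolic cochaperone and a relative of Tomm20, had averaged differences of -0.03, -0.06 and -0.12.

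Tomm40l, a paralogue of the pore, had the most negative estimate of the 38 genes at rest and averaged over states, but not after exercise, where those of Timm23 and Samm50 were more negative. It measured 7.09, 7.28 and 6.84 in WT sedentary, 6.38, 6.88 and 6.69 in ERRa-null sedentary, 7.10, 7.10 and 7.26 in WT exercised and 6.87, 6.61 and 6.78 in ERRa-null exercised muscle. WT sedentary replicate 3 and ERRa-null sedentary replicate 2 crossed, and the exercised groups did not overlap. The averaged difference was -0.41 ± 0.10 (adjusted p = 0.0714). Tomm40 itself measured 8.42, 8.27 and 8.30 in WT sedentary, 8.27, 8.37 and 8.34 in ERRa-null sedentary, 8.29, 8.17 and 8.42 in WT exercised and 8.20, 8.30 and 8.35 in ERRa-null exercised muscle, with both genotypes overlapping throughout. The genotype difference of Tomm40l was lower than that of Tomm40 by -0.40; the pair was picked after the values were seen, so the difference is given without a test. Without the arrays of female profile it was -0.31, and without the sedentary arrays of high Ucp1 -0.28.

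**Figure D3:**
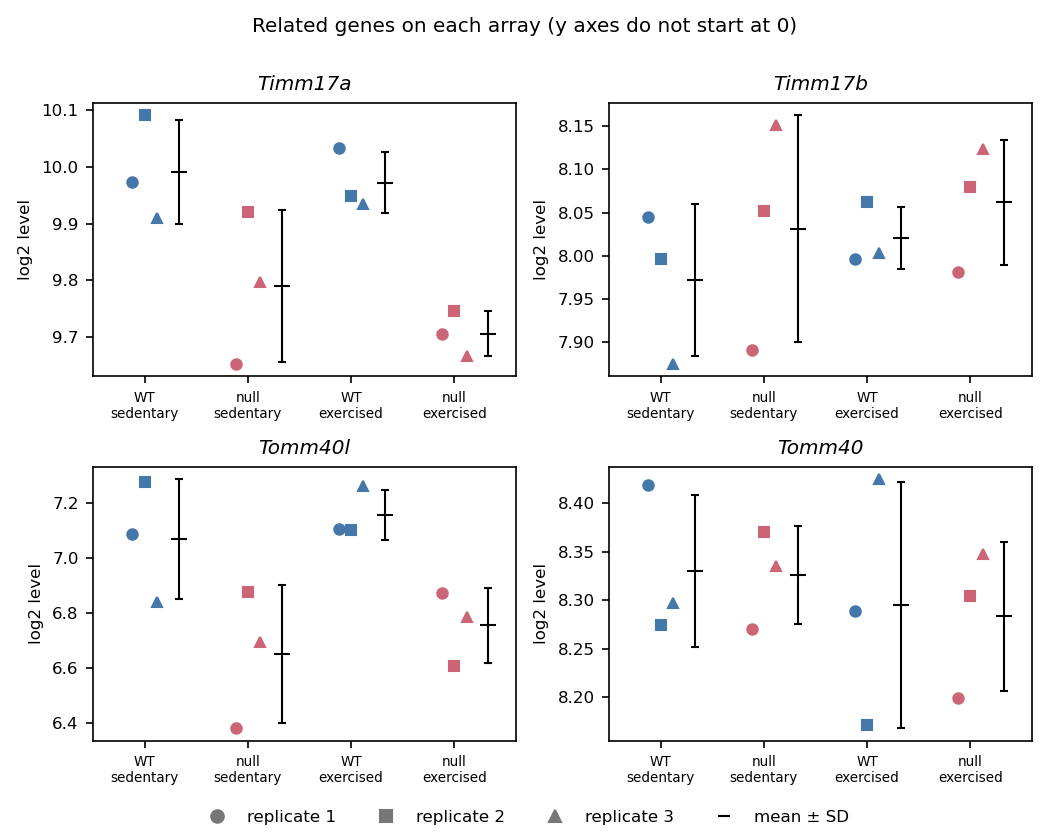
Log2 level on each array (y axes, not from 0 and of different spans) of Timm17a and Timm17b (top) and of Tomm40l and Tomm40 (bottom), by group. Symbols mark replicate numbers and bars the mean with its SD over 3 arrays; the ERRa-null groups of Timm17a and Tomm40l have lower means than the WT groups, while those of Timm17b and Tomm40 overlap the WT groups in both states.

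The small TIM chaperones and the TIM22 complex, which handle carrier proteins, had a median averaged genotype difference of -0.01 over 9 genes, none of them called. Timm10b, a TIM22-bound relative of Timm10, measured 7.46, 7.21 and 7.16 in WT sedentary, 7.51, 7.43 and 7.44 in ERRa-null sedentary, 7.30, 7.50 and 7.39 in WT exercised and 7.51, 7.50 and 7.44 in ERRa-null exercised muscle. It had the highest estimate of the 38 genes, 0.13 ± 0.06 (adjusted p = 0.424), with overlapping groups; its other, dimmer probeset gave -0.03 at rest and 0.07 after exercise. Timm8b, whose promoter holds the ERR site shown above, ranged from 9.70 to 9.82 over all 12 arrays, and its averaged difference was -0.01 ± 0.04 (95% interval -0.10 to 0.08). Timm8a1, its relative, had -0.06 on the probeset used here, whereas another of its probesets gave -0.53 at rest and -0.47 after exercise and the last one -0.07 and 0.13, so its estimate depends on the probeset. Timm13, Timm22, Timm29 and Timm8a2 lay between -0.10 and 0.07.

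The processing peptidase cuts off presequences and needs both of its subunits. Pmpcb, the catalytic subunit, measured 8.84, 8.86 and 8.72 in WT sedentary, 8.53, 8.60 and 8.76 in ERRa-null sedentary, 8.62, 8.66 and 8.86 in WT exercised and 8.32, 8.63 and 8.54 in ERRa-null exercised muscle. Pmpca, the subunit that recognises the substrate, measured 9.50, 9.39 and 9.32 in WT sedentary, 9.19, 9.40 and 9.44 in ERRa-null sedentary, 9.36, 9.49 and 9.55 in WT exercised and 9.45, 9.32 and 9.42 in ERRa-null exercised muscle. The genotypes overlapped for both genes in both states. The averaged differences were -0.20 ± 0.07 for Pmpcb (adjusted p = 0.254) and -0.07 ± 0.06 for Pmpca, and the test of one against the other did not pass (0.13, exact permutation p = 0.085, adjusted p = 0.204).

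Of the 3 matrix folding and 3 proteolysis genes, which leave out Hspa9, described with the import motor and called lower, none was called between genotypes. After exercise 4 of the 6 had all ERRa-null arrays below all WT arrays (66.7% in each group, against 9.31% of all tested genes). Hspd1, the large chaperonin Hsp60, measured 9.40, 9.42 and 9.06 in WT sedentary, 9.07, 9.19 and 9.21 in ERRa-null sedentary, 9.67, 9.66 and 9.53 in WT exercised and 9.09, 9.38 and 9.27 in ERRa-null exercised muscle. The WT exercised arrays stood above all the other 9. The genotype difference was -0.14 ± 0.10 at rest and -0.37 ± 0.10 after exercise (adjusted p = 0.169). Hspe1, the co-chaperonin Hsp10 that caps it, measured 8.18, 8.03 and 8.12 in WT sedentary, 8.02, 8.09 and 8.19 in ERRa-null sedentary, 8.55, 8.51 and 8.28 in WT exercised and 8.07, 8.36 and 8.28 in ERRa-null exercised muscle. Its genotypes overlapped in both states, with differences of -0.01 ± 0.10 and -0.21 ± 0.10. Trap1, a matrix Hsp90, had -0.01 at rest and -0.19 ± 0.07 after exercise (adjusted p = 0.328).

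Lonp1, the main protease of the matrix, measured 8.20, 8.18 and 8.11 in WT sedentary, 7.95, 8.06 and 8.13 in ERRa-null sedentary, 8.13, 8.31 and 8.36 in WT exercised and 7.89, 7.90 and 8.02 in ERRa-null exercised muscle. The genotypes overlapped at rest and were apart after exercise, with differences of -0.12 ± 0.08 and -0.33 ± 0.08 (adjusted p = 0.786 and 0.122). Clpx, the unfoldase that feeds Clpp, measured 8.43, 8.42 and 8.51 in WT sedentary, 8.25, 8.48 and 8.66 in ERRa-null sedentary, 8.18, 8.47 and 8.48 in WT exercised and 8.11, 8.22 and 8.27 in ERRa-null exercised muscle. Its genotypes overlapped in both states, with an averaged difference of -0.08 ± 0.08. Clpp, the protease chamber, had -0.18 ± 0.09 (adjusted p = 0.445), and its highest array was WT exercised replicate 1 at 8.33, against 7.68 to 7.97 on the other 11.

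The count of 5 genes called between genotypes rested on the full set of arrays. It was 0 without the arrays of female profile, 0 without the sedentary arrays of high Ucp1 and 0 with hepatocyte, brown adipocyte and B lymphocyte scores as covariates, and it was 5 with the brown adipocyte score alone and 4, without Chchd3, with the slow fibre score. Leaving out single arrays gave from 2 (WT sedentary replicate 1 or 2) and 3 (ERRa-null exercised replicate 1) to 9 (WT sedentary replicate 3). With any other single array left out, ERRa-null sedentary replicate 1 among them, Timm23, Immt, Samm50 and Hspa9 kept their calls. In those omissions Chchd3 kept its call only without ERRa-null sedentary replicate 3. In all 24 alternative settings the estimates of the 5 genes stayed below 0, at -0.42 to -0.22 on the log2 scale.

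Of the 38 genes, Timm10 was the only one called for a change 2 h after the run. In WT muscle 0 of the 38 were called, against 3.43% of all tested genes, with 1 lower and 3 higher at an unadjusted p under 0.05 (8.61% and 7.51% of all tested genes). In ERRa-null muscle 0 were called, against 0.639%, with 3 lower and 1 higher (7.3% and 5.79% of all). Averaged over genotypes 1 gene was called, Timm10, against 6.57% of all tested genes (3.14% as higher). The median response was 0.04 in WT and -0.02 in ERRa-null muscle, against -0.01 over all tested genes in both. Neither sign held throughout: the WT median was -0.0027 without WT sedentary replicate 3, and the ERRa-null median 0.02 without ERRa-null sedentary replicate 3. In WT, 4 genes (10.5%) had all exercised arrays above all sedentary ones, Hspd1, Hspe1, Timm10 and Trap1, against 10% of all tested genes.

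Timm10, which with Timm9 forms the chaperone ring that carries hydrophobic precursors across the intermembrane space, measured 7.28, 7.22 and 7.14 in WT sedentary, 7.68, 7.36 and 7.56 in WT exercised, 6.88, 7.24 and 7.26 in ERRa-null sedentary and 7.40, 7.39 and 7.38 in ERRa-null exercised muscle. All 6 exercised arrays were above all 6 sedentary arrays, as for 1.99% of all tested genes. The change was 0.32 ± 0.11 in WT (adjusted p = 0.169), 0.26 ± 0.11 in ERRa-null (adjusted p = 0.344) and 0.29 ± 0.08 averaged (adjusted p = 0.0499), and of 24 alternative settings 4 kept the call. Leaving out any single array other than ERRa-null sedentary replicate 2 or WT exercised replicate 2 ended it (adjusted p 0.0510 to 0.109), as did leaving out the arrays of high Ucp1 (0.20, adjusted p = 0.474). The brown adipocyte score, higher on those sedentary arrays, gave 0.26 and an adjusted p of 0.357 when entered as a covariate.

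Timm9, its partner in the ring, measured 6.10, 5.95 and 6.42 in WT sedentary, 6.26, 6.02 and 6.13 in WT exercised, 6.19, 6.49 and 6.41 in ERRa-null sedentary and 6.26, 5.82 and 6.07 in ERRa-null exercised muscle. The exercise groups overlapped in both genotypes, with changes of -0.02 ± 0.14 in WT and -0.32 ± 0.14 in ERRa-null (adjusted p = 0.380). The exercise change of Timm9 was lower than that of Timm10 by -0.46 (two-sided exact permutation within genotype, n = 3 a group, p = 0.005, adjusted p = 0.03 over the 12 tests of pairs). It was -0.35 without the arrays of female profile, -0.40 without the sedentary arrays of high Ucp1 and -0.51 to -0.37 with any single array left out. The promoter window of Timm9, shown above, holds a heat shock element of 3 units, and that of Timm10 the paired form TTCNNGAA, found in 9 of the 34 genes.

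The chaperonin pair, Hspd1 and Hspe1, had positive estimates in both genotypes, and neither gene was called for exercise in the main fit. Whether the heat shock element shared by their windows bears on this was not tested. For Hspd1, whose array values stand above, the change was 0.32 ± 0.10 in WT (adjusted p = 0.133) and 0.09 ± 0.10 in ERRa-null muscle. For Hspe1 it was 0.34 ± 0.10 (adjusted p = 0.0939) and 0.14 ± 0.10. In WT all 3 exercised arrays of both genes were above all 3 sedentary arrays, and in ERRa-null muscle they overlapped. Averaged over genotypes, the change of Hspe1 was 0.24 ± 0.07 (adjusted p = 0.0640) and passed the threshold in 4 of 24 alternative settings, median centring of the arrays among them (0.29, adjusted p = 0.0434). The genotypes' responses were not shown to differ (-0.23 ± 0.15 and -0.20 ± 0.14, adjusted p = 0.999 for both), nor were those of Hspd1 and Hspe1 from each other (-0.03, exact permutation p = 0.635, adjusted p = 0.645).

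**Figure D4:**
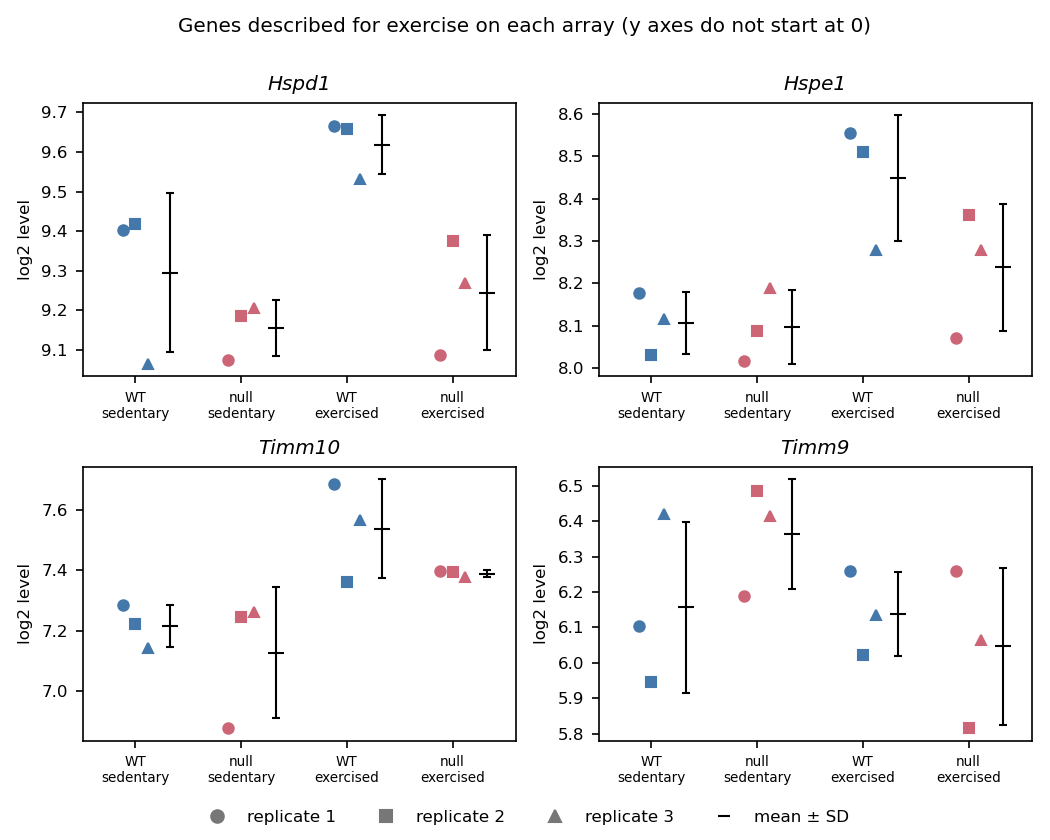
Log2 level on each array (y axes, not from 0) of Hspd1, Hspe1, Timm10 and Timm9, by group. Symbols mark replicate numbers and bars the mean with its SD over 3 arrays; the exercised arrays of Timm10, 7.36 to 7.68, lie above all its sedentary arrays, 6.88 to 7.28.

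Some cytosolic chaperones hand precursors to TOM, and a list of cytosolic heat shock genes was read on the same arrays. The list was chosen with earlier results of these data known, so it is not an independent measure of the run. Of 9 listed heat shock genes 7 were tested. In both genotypes all 7 had every exercised array above every sedentary one. The share of all tested genes was 10% in WT and 8.99% in ERRa-null muscle. At an adjusted p under 0.05, 7 of 7 were called higher in WT (median change 1.42) and 5 of 7 in ERRa-null muscle (median 0.72). Of all tested genes, 3.43% and 0.639% were called in either direction. The genotypes' responses were not shown to differ: the limma interaction called 0 of the 7, against 0.00751% of all (lowest adjusted p = 0.308). At an unadjusted p under 0.05 it gave 4 lower (57.1%, against 3.2% of all tested genes). In the genotype comparison after exercise 2 of the 7 were called lower, Hsp90aa1 and Hsph1 (28.6%, against 0.286% of all tested genes). Without overlap, 5 of the 7 were lower there (71.4%, against 9.31%). Averaged over states 1 was called lower, Hsph1 (14.3%, against 0.999%). Atf4, a regulator of the mitochondrial stress response, rose by 0.65 ± 0.07 in WT (adjusted p = 0.000311) and had an estimate of 0.26 ± 0.07 in ERRa-null muscle (adjusted p = 0.142). It was the 1 of 4 tested regulators to be called, where 3.43% of all tested genes were called for exercise in WT. For these 4 regulators too, the interaction called 0 (lowest adjusted p = 0.608).

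Import and quality control genes outside the 38 also had mostly negative estimates between genotypes. Of 36 listed, 30 were tested; averaged over states 26 of the 30 were below 0 (86.7%, against 49.8% of all tested genes), the median was -0.15 against 0.00, and 2 were called lower (6.67%, against 0.999%) and none higher. Dnajc15, a J protein of the import motor, measured 8.66, 8.83 and 8.94 in WT sedentary, 8.39, 8.24 and 8.52 in ERRa-null sedentary, 8.63, 8.76 and 8.69 in WT exercised and 8.13, 8.505 and 8.36 in ERRa-null exercised muscle. Every ERRa-null array was below every WT array, and its difference was -0.39 ± 0.08 (adjusted p = 0.0292). Chchd10, a protein of the intermembrane space, had -0.25 ± 0.05 (adjusted p = 0.0217). The next by p-value were Afg1l, an AAA protein of the inner membrane (-0.41 ± 0.09, adjusted p = 0.0560), Apoo, a MICOS subunit (-0.42 ± 0.10, adjusted p = 0.0561), Dnaja3, a matrix J protein (-0.29 ± 0.07, adjusted p = 0.0809), and Mipep, another presequence peptidase (-0.22 ± 0.06, adjusted p = 0.104). In the other 6 comparisons none of the 30 was called; at an unadjusted p under 0.05, 8 were lower (26.7%, against 4.16% of all tested genes) and 1 higher at rest, and 15 lower (50%, against 6.64%) and 0 higher after exercise.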

How the data were processed

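RNA of 12 gastrocnemius samples, 3 in each of 4 groups, was measured on 1-colour arrays. The authors deposited log2 values, made with RMA in Affymetrix Expression Console and Transcriptome Analysis Console, per the submitters' processing notes; versions are not given there, and the labels describe extraction with a fibrous tissue kit and biotin labelling. RMA corrects background and makes the arrays' distributions alike, so a shift common to all genes cannot be seen, and no depth applies to arrays: their number limits the precision. Replicates are labelled biological. Of 41345 probesets, 23521 carried 1 symbol in the platform annotation, 1814 several and 16010 none; a gene was the 1-symbol probeset with the highest mean over the 12 arrays, and the dimmest 40% (mean below 5.32) were not tested.

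Group means were fitted with limma 3.58.1 (R 4.3.3), lmFit and eBayes with an intensity trend on 8 residual degrees of freedom, over all 12 arrays. The 7 comparisons were genotype at rest, genotype after exercise, exercise in each genotype, their interaction, and genotype and exercise averaged over the other factor; p-values were adjusted by Benjamini-Hochberg over 13308 genes and called under 0.05. Differences are ERRa-null minus WT or exercised minus sedentary, on the log2 scale. The fit was tested on simulated data. Gene pairs were compared by exact permutation of the arrays within the other factor, 400 arrangements, a test added after the data were seen; 1 further pair, picked by its values, is given without a test. Promoters were read from a RefSeq table (GRCm38.p6; Python 3.11.15).

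Levels on every array are given for called genes and, for each role, up to 2 more with the smallest p in the averaged comparisons, and for the genes paired with these. The members and lists were chosen with earlier results of these data known. Deviations of same-numbered arrays from their group means correlated above 0.1 in every pair only between the exercised genotypes (0.312, 0.207 and 0.174). The titles number the replicates without stating a pairing, and the exercised arrays numbered 2 differed in profile, female in ERRa-null and not in WT. The main fit holds no block, and a block for replicate number was an alternative setting. The correlations were -0.23, -0.28 and 0.35 between genotypes at rest. They were 0.269, 0.063 and 0.157 for exercise in WT and 0.041, -0.15 and -0.0086 for exercise in ERRa-null.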

Additional observations from a re-analysis of the deposited data

How the results depend on the processing

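Of 468 values recomputed under alternatives for 21 results, 360 kept their side of the threshold or moved by less than the spread (counts by less than 1.5 times), covering medians, counts and the called genes. In the 164 that concern called genes no direction changed, whereas 14 of 152 medians changed sign, all of them in the exercise and interaction comparisons. Leaving out single arrays gave medians of -0.0027 to 0.07 for exercise in WT, -0.06 to 0.02 in ERRa-null, -0.0012 to 0.03 averaged and -0.09 to 0.01 for the interaction, and of -0.11 to -0.04 between genotypes at rest. The count called between genotypes averaged over states, 5, became 8 with array weights, 3 without the intensity trend, and 0 with the hepatocyte, brown adipocyte and B lymphocyte scores, without the arrays of female profile or without the sedentary arrays of high Ucp1; leaving out single arrays gave 2 to 9. After exercise the count of 1 became 5 with array weights, and 0 without the intensity trend, on only the arrays compared, with the replicate block over all arrays, without the arrays of female profile or without the sedentary arrays of high Ucp1, and 0 to 0 when each exercised array was left out. For exercise averaged over genotypes the count of 1 became 2 with array weights or median centring, and 0 with 20% of genes left out as dim, no filter, a gene's mean probeset, no intensity trend, the replicate block, the slow fibre score, the brown adipocyte score, the 3 scores together, without the arrays of female profile or without those of high Ucp1; single arrays gave 0 to 1. With the 3 scores the median change became -0.047 for exercise averaged over genotypes and -0.035 for exercise in WT. With the slow fibre score the median genotype difference at rest became -0.16. The replicate block changed no other call. Its form on only the arrays compared and the brown adipocyte score alone were chosen after seeing the data. The number of arrays, 3 a group, limits all of this. Causes of these moves were not tested. Settings that leave out arrays also lower the number of samples, down to 1 in a group, whose spread is then taken from the other groups.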
